A study of Mus musculus with 5 samples.

Results

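The genes described here are those of glycolysis, which splits glucose into pyruvate and lactate, and those induced by low oxygen, 33 in all, taken from a fixed list of names. Each was represented by the probe set that carried its symbol alone and had the highest mean over all arrays. This gave values for 30 of the 33, out of 18194 genes measured in the same way. Of the other 3, Bnip3l was covered only by probe sets that carry several symbols, and Gpi1 and Eno1 had no probe set under their symbols in the annotation used, so all 3 were not analysed here. The list held 3 transporters, 15 glycolytic enzymes (13 measured), 3 regulators of glycolytic flux, 3 genes of oxygen sensing and 9 further hypoxia targets (8 measured).

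RNA was measured on 5 one-colour arrays. The sample titles name 3 of them control and 2 TNF-LTBR, each with a time of 24 h. The labels describe aortic endothelial cells of C57BL/6J background, grown in medium with serum, heparin and endothelial growth supplement. No genotype, age or sex is given, the treatment text names PBS alone for all 5 samples, and neither the agonists nor the doses of the TNF-LTBR group are named. No label says whether each array came from its own culture or animal, so the p-values speak of the spread among these 5 arrays, which may be technical. The oxygen level of the cultures is not given either.

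In glycolysis, hexokinases trap glucose as a phosphate, phosphofructokinase commits it to breakdown, and pyruvate kinase and lactate dehydrogenase complete the path to lactate. Endothelial cells are known to draw much of their energy from this path even with oxygen present. Many of its genes are targets of HIF-1, a transcription factor whose alpha subunit, encoded by Hif1a, is marked for degradation by oxygen-dependent prolyl hydroxylases and accumulates when oxygen is scarce. HIF-1 then also raises genes outside glycolysis, among them the hydroxylase Egln3, which limits the factor in return.

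The arrays did not separate by title. All values below are log2(intensity + 16) per probe set, so a difference of 1 is a doubling on that scale. Over all tested genes, the median absolute difference was 0.158 between control 2 and TNF-LTBR 1 and 0.165 between control 3 and TNF-LTBR 2, against 0.201 to 0.349 for the other 8 pairs of arrays. For the 30 genes of the list these medians were 0.0913 and 0.209, against 0.266 to 0.336 for the others. Markers of cell types differed between arrays as well. Of 18 endothelial markers, 7 were above the brightness limit for testing, and the summed intensity of all 18 lay between 3530 and 4937 in control and between 3755 and 4430 in TNF-LTBR. Eng alone gave 1550 to 1858 of each sum, so the sums say little about the other markers. By intensity Cdh5 fell from 235.6 on control 1 to 28.7 on TNF-LTBR 2, while Plvap rose from 401.3 on control 2 to 759.3 on TNF-LTBR 2. The junction and platelet-binding genes Cdh5, Pecam1 and Vwf were dim, at 5.48 to 7.98, 6.10 to 7.75 and 4.19 to 4.54, whereas Eng at 10.61 to 10.87, Plvap at 8.70 to 9.60 and Kdr at 8.08 to 8.57 were above the limit. All 12 fibroblast and pericyte markers were above the limit, with summed intensities of 50010 to 83290 in control and 83480 and 83770 in TNF-LTBR. Smooth muscle markers summed to 12630 to 28170 and to 12330 and 14610, and macrophage and lymphocyte markers to 2996 to 8652 and to 3431 and 9643. No marker was at 0. The part that cell make-up has in any result below was not tested, and in such bulk RNA fewer cells of a type and less RNA per cell cannot be told apart. RNA quality was similar, with a ratio of 3′ to 5′ signal of 0.749 to 0.783 for Gapdh and 1.33 to 1.44 for Actb, and groups that overlapped in both.

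Of the 30 genes, 24 had a higher mean in TNF-LTBR and 6 a lower one, where 49.3% of all tested genes were higher and 50.7% lower. None of these differences passed the test: limma called 0 of 10916 genes at an adjusted p of 0.05, and at an unadjusted p under 0.05 it called 190 genes (1.74%) but none of the 30. The smallest adjusted p was 0.999. For 4 of the 30, against 6.93% of tested genes, each TNF-LTBR array exceeded every control, namely Egln3, Pdk1, Pfkfb4 and Pkm. Both were lower than every control for 1, Adm, against 6.32%. An absolute difference of at least 0.5 was seen for 3, Egln3, P4ha2 and Slc16a3, against 7.1%. The median difference was 0.13 over the list and -0.0036 over all tested genes.

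The count of 24 rested on 1 array. TNF-LTBR 2 was the highest of the 5 arrays for 19 of the 30 genes and the lowest for none, where it was highest for 16.0% and lowest for 16.9% of all tested genes. Control 1 was the lowest for 11 genes and the highest for none, where the shares over all tested genes were 20.1% and 17.9%. Without TNF-LTBR 2, 15 of the 30 were higher and 15 lower, beside 50.2% higher over all tested genes, and the median difference was 0.057. Without control 1, 24 were still higher, with a median of 0.079.

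**Figure D1:**
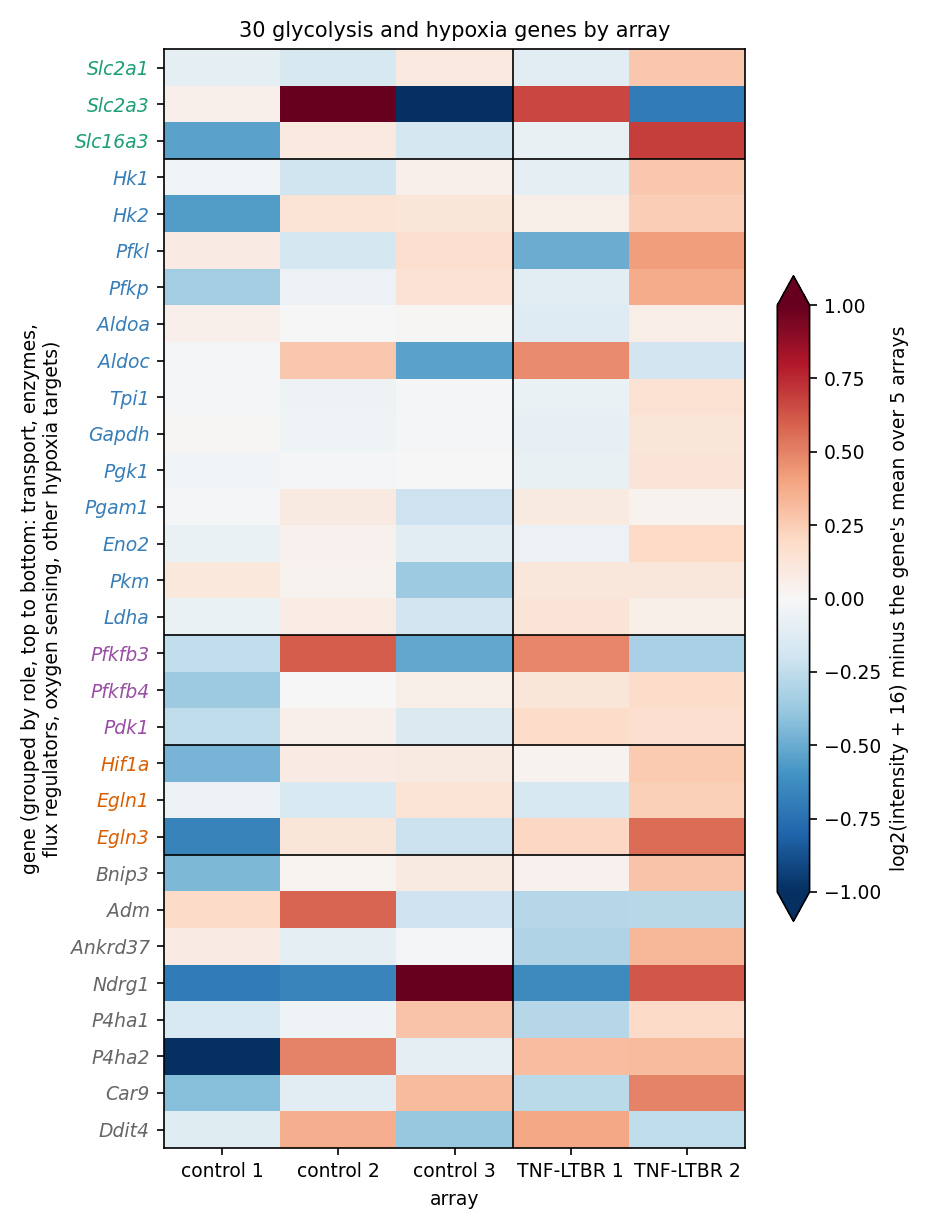
Heat map of the 30 genes (rows, grouped by role) on the 5 arrays (columns), coloured by log2(intensity + 16) minus the gene's mean over the arrays; the colour scale ends at -1 and 1, which Slc2a3, Ndrg1 and P4ha2 exceed. The TNF-LTBR 2 column is the highest for 19 genes, and Slc2a3 and Ndrg1 alternate between arrays of both groups.

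Glucose enters the cell through the transporters Slc2a1 (GLUT1) and Slc2a3 (GLUT3), and lactate leaves through Slc16a3 (MCT4). Slc2a1 lay at 12.09, 12.02 and 12.28 on the control arrays in order and at 12.07 and 12.45 on the TNF-LTBR arrays. Its groups overlapped on this probe set, with TNF-LTBR 2 the highest array, and the difference was 0.13 (95% interval -0.29 to 0.54; limma adjusted p = 0.999). Another Slc2a1 probe set, the dimmest of 3, did not overlap, at 10.26, 10.39 and 10.36 in control, against 10.77 and 10.85 in TNF-LTBR, a difference of 0.47. It is also the one Slc2a1 probe set without a letter suffix (a, s, x or f) in its name. Taken alone it had an unadjusted limma p of 0.0124 and an adjusted p of 1.00 (0.971 to 1.00 over the alternatives for Slc2a1).

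Slc16a3 lay at 7.94, 8.57 and 8.30 in control, against 8.40 and 9.17 in TNF-LTBR. TNF-LTBR 2 stood above the other 4 arrays, while TNF-LTBR 1 lay within the controls. The difference of 0.51 (95% interval -0.29 to 1.32) was 0.13 without TNF-LTBR 2 and 0.90 without TNF-LTBR 1. Slc2a3 followed neither of these, at 8.14, 9.10 and 7.06 in control, against 8.76 and 7.39 in TNF-LTBR. It was high on control 2 and TNF-LTBR 1 and low on control 3 and TNF-LTBR 2. Its control range of 2.04 was wider than that of 96.5% of tested genes, beside a group difference of -0.03.

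By median range, the glycolytic enzymes were the steadiest part of the list. Over the 5 arrays the 13 measured enzymes had a median range of 0.315, against 0.562 for all tested genes. This was not particular to them: tricarboxylic acid cycle and pentose phosphate genes, described below, had median ranges of 0.340 and 0.411. A range under 0.5 was seen for 9 of 13, against 43.0%. The enzymes were also bright, with a list mean of 12.1 in control, against 10.8 for the other hypoxia targets compared below. Gapdh, Pgk1 and Aldoa, with means of 14.37, 14.20 and 13.81, ranged by 0.204, 0.197 and 0.190. The dimmer Aldoc, Hk2 and Pfkp ranged by 1.01, 0.807 and 0.722, but Eno2 at 8.75 by 0.312 and Pfkl at 12.26 by 0.908. The part of brightness in these ranges was not tested. Of the 13, 11 were higher in TNF-LTBR and Pfkl and Aldoa were lower, with differences from -0.07 to 0.25 and a median of 0.12. Without TNF-LTBR 2 the median was -0.02 and 5 of 13 were higher, and without control 3 or TNF-LTBR 1 it was 0.05 and 0.18. On their brightest probe sets, the 95% intervals of Aldoa, Tpi1, Gapdh and Pgk1 all lay between -0.30 and 0.34, so changes of 1.5-fold or more lay outside the intervals for these 4.

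Gapdh, which oxidises glyceraldehyde phosphate and is widely used as a reference transcript, lay at 14.38, 14.32 and 14.36 in control, against 14.29 and 14.49 in TNF-LTBR. The TNF-LTBR arrays were the lowest and the highest of the 5, and the difference was 0.04 (95% interval -0.21 to 0.28). Its chosen probe set is an array control against the 5′ part of the transcript, and the controls for the middle and the 3′ part differed by 0.03 and 0.04. Pgk1, which makes the first ATP of the pathway, had the narrowest control range on its brightest probe set, 0.0235, and a difference of 0.04. Its other probe sets differed by 0.13 and 0.42, and the dimmest lay at 12.23, 12.57 and 11.26 in control. Aldoa, the main aldolase outside liver and brain, had the narrowest range over all 5 arrays, 0.190.

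Pkm and Ldha act at the end of the path. Ldha, which turns pyruvate into lactate, lay at 13.63, 13.77 and 13.50 in control, against 13.82 and 13.75 in TNF-LTBR. The groups overlapped only because control 2 lay above TNF-LTBR 2, and the difference was 0.15 (95% interval -0.14 to 0.44), or 0.09 without control 3. Pkm, the pyruvate kinase of most tissues, lay at 13.462, 13.395 and 12.996 in control, against 13.469 and 13.469 in TNF-LTBR. Its TNF-LTBR arrays exceeded control 1 by less than 0.01 and control 3 stood low. The difference was 0.18 (95% interval -0.24 to 0.61), 0.04 without control 3, and its groups overlapped once arrays were centred on their medians.

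Among the upstream enzymes, isoforms of the same step differed in their spread over the arrays. Hk1, the constitutive hexokinase, had a range of 0.466 over the arrays and a difference of 0.14, while Hk2, its inducible counterpart, had a range of 0.807 and a difference of 0.25, with control 1 lowest at 10.06. Without control 1 the Hk2 difference was 0.02. Of the phosphofructokinases, Pfkl ranged by 0.908, with TNF-LTBR 1 lowest and TNF-LTBR 2 highest, and Pfkp by 0.722, with control 1 lowest. The difference was -0.07 for Pfkl and 0.22 for Pfkp on their brightest probe sets. The next Pfkl probe set differed by 0.05. The dimmest Pfkl probe set differed by -0.32 without overlap, at 7.02 and 7.00 in TNF-LTBR, against 7.16 to 7.46 in control. The other Pfkp probe sets differed by 0.17 and 0.23. Aldoc, the aldolase of brain, had the widest range among the enzymes, 1.01, against the 0.190 of Aldoa, and was highest on TNF-LTBR 1 and lowest on control 3. Tpi1, Pgam1 and Eno2, which act between aldolase and pyruvate kinase, differed by 0.07, 0.10 and 0.12, all with overlapping groups. Several enzymes, among them Gapdh, Pgk1, Aldoa, Tpi1 and Ldha, have processed pseudogenes of near-identical sequence, and whether these contributed signal was not tested.

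**Figure D2:**
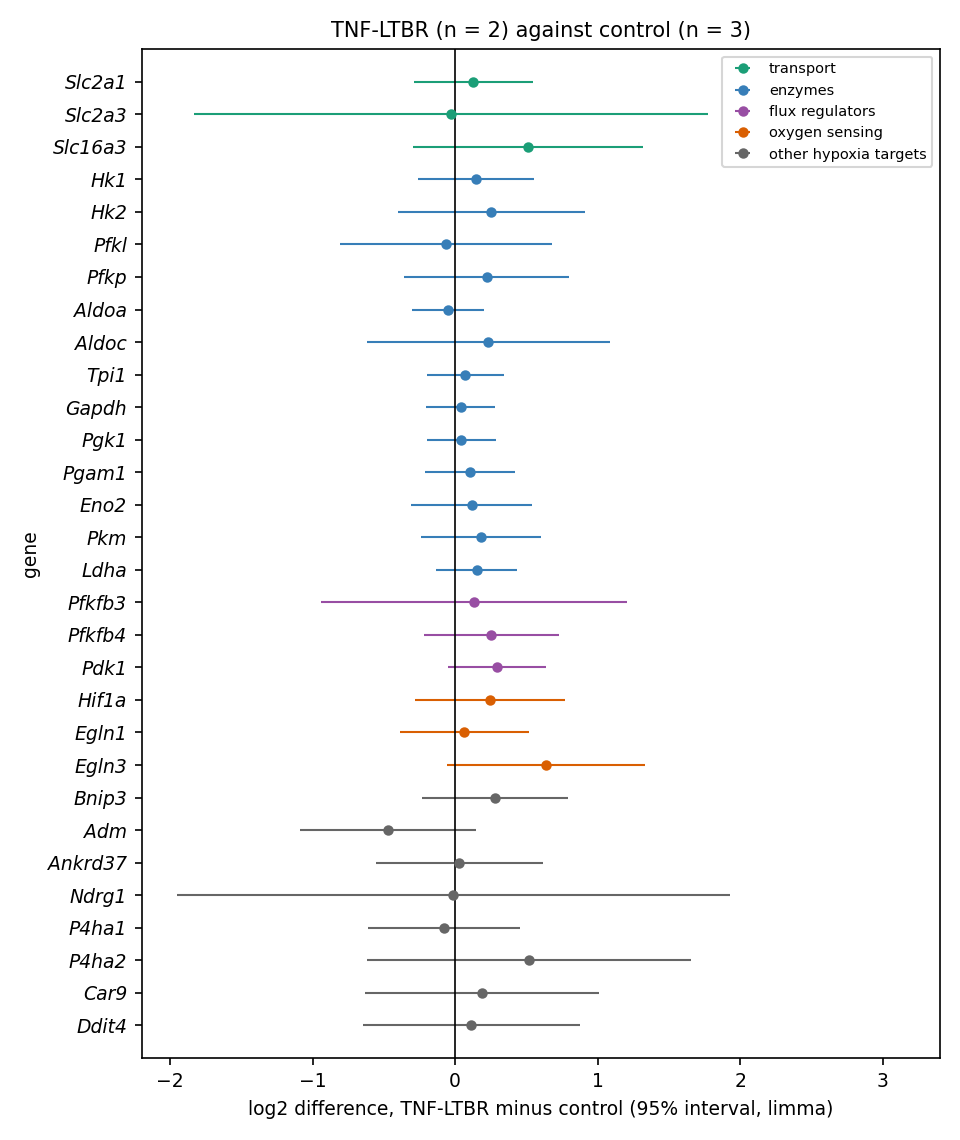
Difference in log2(intensity + 16), TNF-LTBR (n = 2) minus control (n = 3), for each of the 30 genes (points), with 95% intervals from limma (lines) and colours for role. All 30 intervals include 0; they are narrow for enzymes such as Gapdh and Pgk1 and widest for Ndrg1 and Slc2a3.

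The regulators of flux sit beside the pathway. Pdk1 encodes a kinase that shuts pyruvate dehydrogenase and so keeps pyruvate from the mitochondria. It lay at 11.51, 11.81 and 11.62 in control, against 11.95 and 11.93 in TNF-LTBR. The groups did not overlap, and the TNF-LTBR arrays lay within 0.03 of each other. The difference was 0.29 (95% interval -0.05 to 0.64; limma adjusted p = 0.999), a 1.22-fold change that missed the threshold, and it stayed between 0.22 and 0.38 whichever array was left out. The other 3 Pdk1 probe sets differed by 0.14, 0.27 and -0.09 with overlapping groups.

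Pfkfb4 and Pfkfb3 encode enzymes that set the level of fructose 2,6-bisphosphate, the activator of phosphofructokinase. Pfkfb4 lay at 8.70, 9.06 and 9.11 in control, against 9.18 and 9.24 in TNF-LTBR. The groups did not overlap, but the gap to control 3 was small against the spread of the controls, and the difference was 0.25 (95% interval -0.22 to 0.73), or 0.12 without control 1. Pfkfb3, known for its role in vessel sprouting, was high on control 2 and TNF-LTBR 1, at 10.20 and 10.07, and lay between 9.07 and 9.34 on the other 3 arrays. Its group difference was 0.13 beside a control range of 1.13.

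Hif1a and the hydroxylases form the oxygen-sensing loop. Hif1a lay at 13.14, 13.68 and 13.69 in control, against 13.63 and 13.86 in TNF-LTBR. Control 1 stood low, TNF-LTBR 2 stood highest, and TNF-LTBR 1 lay just below controls 2 and 3. The difference was 0.24 (95% interval -0.28 to 0.77; limma adjusted p = 0.999) and was 0.06 without control 1 and 0.13 without TNF-LTBR 2. The 3 dimmer Hif1a probe sets differed more, by 0.51, 0.68 and 0.77, and did not overlap between groups. The dimmest, which gave 0.77, had a mean of 6.47, below the lowest mean of a tested gene, 7.17. The brightest of these 3 lay at 11.07, 12.11 and 12.12 in control, against 12.15 and 12.39 in TNF-LTBR. On each of the 4 probe sets control 1 was the lowest array. These values concern the transcript alone, and the HIF-1 alpha protein, which oxygen controls, was not measured.

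Egln3 encodes the prolyl hydroxylase PHD3, itself a HIF target, and had the largest difference of the list. It lay at 9.84, 10.63 and 10.29 in control, against 10.71 and 11.07 in TNF-LTBR, 10.25 ± 0.40 (SD, n = 3) against 10.89 ± 0.25 (SD, n = 2). The groups did not overlap, though TNF-LTBR 1 exceeded control 2 by less than 0.1. The difference of 0.64 (95% interval -0.05 to 1.33) corresponds to 1.56-fold, was larger than that of 96.1% of tested genes and had an adjusted p of 0.999 in limma. It was 0.43 without control 1, 0.46 without TNF-LTBR 2 and 0.83 without control 2. The dimmer Egln3 probe set showed the same order of groups, at 8.74, 9.54 and 9.32 in control, against 9.57 and 10.40 in TNF-LTBR, a difference of 0.79. Egln1, the hydroxylase PHD2 that is held to set HIF levels in normal oxygen, differed by 0.06 on its brighter probe set and by -0.26 on its dimmer one.

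Adm encodes adrenomedullin, a vasodilator peptide made by vessel cells, and went the other way. It lay at 12.47, 12.86 and 12.07 in control, against 11.990 and 11.996 in TNF-LTBR. Both TNF-LTBR arrays were below all controls, control 3 by less than 0.1, and control 2 stood highest. The difference was -0.47 (95% interval -1.09 to 0.15; limma adjusted p = 0.999), and it was -0.27 without control 2 and -0.67 without control 3. The dimmer Adm probe set differed by -0.53, but there control 3 at 11.95 lay within the TNF-LTBR arrays at 11.88 and 11.95.

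**Figure D3:**
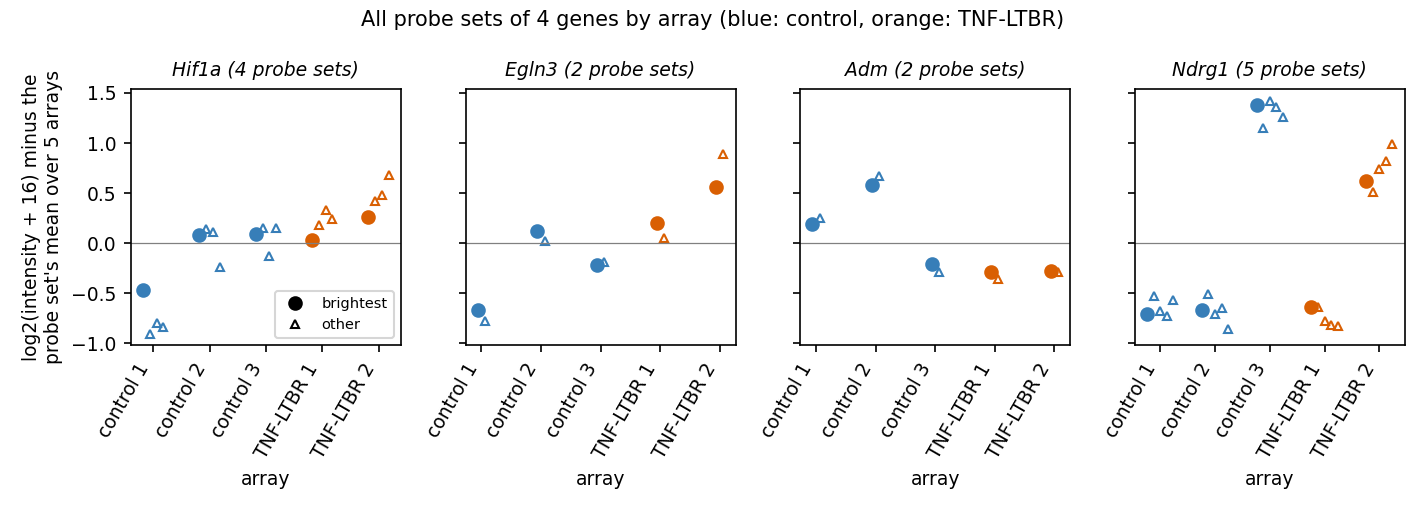
All probe sets of Hif1a, Egln3, Adm and Ndrg1 on the 5 arrays, as log2(intensity + 16) minus the probe set's mean over the arrays; circles mark the brightest probe set, triangles the others, blue control and orange TNF-LTBR. Control 1 is lowest on all 4 Hif1a and both Egln3 probe sets, and all 5 Ndrg1 probe sets are high on control 3 and TNF-LTBR 2.

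Promoter sequences are given for Egln3, Adm, Pdk1 and Hif1a, the genes above with steady directions on either side of 0 and the factor itself, to show where the core of the hypoxia response element occurs. HIF-1 binds the letters ACGTG or GCGTG. Both were searched on both strands over the 250 bases before the annotated start, from RefSeq on GRCm38.p6, and a palindromic CACGTG counts as 2 matches because each strand holds ACGTG. Capitals mark the matches, written 5′ to 3′ on the gene's strand. The windows are chr12:54203875-54204124, minus strand for Egln3, chr7:110627407-110627656, plus strand for Adm, chr2:71872974-71873223, plus strand for Pdk1 at the first of its 2 annotated starts, and chr12:73907617-73907866, plus strand for Hif1a.
Egln3: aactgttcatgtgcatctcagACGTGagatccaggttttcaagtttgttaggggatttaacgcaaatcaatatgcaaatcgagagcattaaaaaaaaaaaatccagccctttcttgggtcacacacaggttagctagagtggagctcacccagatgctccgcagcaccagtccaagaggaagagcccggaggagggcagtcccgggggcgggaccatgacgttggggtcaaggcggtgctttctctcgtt
Adm: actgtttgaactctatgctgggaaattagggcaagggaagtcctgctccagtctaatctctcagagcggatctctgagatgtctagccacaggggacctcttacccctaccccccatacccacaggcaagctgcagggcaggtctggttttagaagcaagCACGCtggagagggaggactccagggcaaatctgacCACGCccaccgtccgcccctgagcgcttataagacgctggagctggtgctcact
Pdk1: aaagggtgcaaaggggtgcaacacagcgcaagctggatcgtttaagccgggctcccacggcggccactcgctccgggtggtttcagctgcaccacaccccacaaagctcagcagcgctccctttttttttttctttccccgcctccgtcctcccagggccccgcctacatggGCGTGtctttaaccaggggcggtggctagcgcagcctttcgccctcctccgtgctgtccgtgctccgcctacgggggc
Hif1a: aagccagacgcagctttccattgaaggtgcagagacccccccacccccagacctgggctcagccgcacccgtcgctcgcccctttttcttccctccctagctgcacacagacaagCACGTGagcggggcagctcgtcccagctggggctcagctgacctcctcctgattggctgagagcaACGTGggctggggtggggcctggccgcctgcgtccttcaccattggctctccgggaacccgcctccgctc

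Egln3 had 1 match, 229 bases before the start. Adm had 2, at 90 and 54 bases, both as GCGTG on the opposite strand, and Pdk1 had 1 as GCGTG, at 78 bases, while the window of its other start had 0. Hif1a had 3 matches, of which those at 135 and 134 bases are both strands of 1 palindrome and the third lies at 70 bases. Of the 30 genes, 28 had a window in the table (Slc2a3 and Ndrg1 did not), and 26 of these held at least 1 match. Over all tested genes, 5503 of the 8858 with a window did. By window, 92.9% of the 14 of the other hypoxia targets and 73.7% of the 19 of the enzymes held a match, against 55.9% of the 11424 windows of tested genes. Within the list, Bnip3 and the first Ldha start held the most matches, 5 each. The letters occur in promoters of genes that were higher, such as Egln3, lower, such as Adm, and level, such as Gapdh with 2. A match is a description of sequence and does not show binding.

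The remaining hypoxia targets were P4ha1, P4ha2, Ndrg1, Car9, Ddit4, Bnip3 and Ankrd37. P4ha2, a subunit of the enzyme that hydroxylates collagen, lay at 9.35, 10.87 and 10.29 in control, against 10.69 and 10.69 in TNF-LTBR. The TNF-LTBR arrays lay inside the control range, and control 1 stood low by itself. The difference was 0.52 (95% interval -0.62 to 1.66) and 0.11 without control 1. Its paralogue P4ha1 ranged by 0.571 and differed by -0.08, with control 3 highest.

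Ndrg1, a stress-responsive gene and strong HIF target, split the arrays most. It lay at 10.47, 10.51 and 12.55 in control, against 10.54 and 11.80 in TNF-LTBR. Control 3 and TNF-LTBR 2 were high and the other 3 arrays lay within 0.07 of each other, so both TNF-LTBR values lay inside the control range. The difference was -0.01 (95% interval -1.95 to 1.93), and the control range of 2.08 exceeded that of 96.7% of tested genes. All 5 Ndrg1 probe sets had this order of high and low arrays. Epas1, which encodes HIF-2 alpha, the HIF subunit known for its place in endothelial cells, was likewise low on control 2 and TNF-LTBR 1, at 10.89 and 10.92, and lay at 12.49 on control 1, 12.95 on control 3 and 13.23 on TNF-LTBR 2. Its difference between groups was -0.03.

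Car9, a membrane carbonic anhydrase and classic hypoxia marker, had a range of 0.918, was high on control 3 and TNF-LTBR 2, at 10.73 and 10.90, and differed by 0.19 between groups. Ddit4, an inhibitor of mTOR signalling, had the opposite order, high on control 2 and TNF-LTBR 1, at 11.50 and 11.53, and differed by 0.11. So did Slc2a3, Pfkfb3 and Aldoc, described above, whose highest 2 arrays were also control 2 and TNF-LTBR 1. Bnip3, which directs mitochondria to autophagy, was lowest on control 1 at 12.48, lay between 12.96 and 13.22 elsewhere, and differed by 0.28, or by 0.11 without control 1. Ankrd37, a small ankyrin-repeat protein, differed by 0.03 with TNF-LTBR 1 lowest and TNF-LTBR 2 highest. Some markers moved with the same arrays. Thy1, a fibroblast marker, lay at 13.58 on control 2 and 13.12 on TNF-LTBR 1 but at 7.41 on control 3 and 7.17 on TNF-LTBR 2, with 11.34 on control 1. Lyz2, a macrophage marker, had the same order, at 11.74 and 11.95 against 7.66 and 6.37. The macrophage and lymphocyte markers did not all follow it. Csf1r did, at 9.60 and 9.52 against 8.28 and 8.24. Cd14 was nearly level, at 10.10 and 9.73 against 9.72 and 9.67, and Itgam lay at 5.35 and 7.07 against 4.41 and 5.70. The fibroblast markers did not move as one either: Lum ran the opposite way, at 9.70 and 10.13 against 13.66 and 13.66, and Col1a2 lay between 14.10 and 14.34 on all 5 arrays. The part of any of these markers in the values of Ndrg1, Slc2a3, Pfkfb3 and Ddit4 was not tested.

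Enzymes and other hypoxia targets were then set side by side. The targets comprised 13 measured genes: Pfkfb3, Pfkfb4, Pdk1, Egln1, Egln3, Bnip3, Adm, Ankrd37, Ndrg1, P4ha1, P4ha2, Car9 and Ddit4. Their median difference was 0.13, with 10 higher and 3 lower, against 0.12 for the 13 enzymes, so the gap between the medians was -0.02. The gap turned to 0.05 without control probe sets and those with a letter suffix (a, s, x or f), where the enzyme median was 0.18. With the mean of all probe sets of a gene it turned to 0.01. The median of the targets was 0.08 without control 1 and 0.28 to 0.30 without control 2, control 3 or TNF-LTBR 1. Without TNF-LTBR 2 it was 0.16, while that of the enzymes was -0.02 and the gap -0.18. The lists parted in spread. The median range over the 5 arrays was 0.767 for the targets, 0.315 for the enzymes and 0.562 for all tested genes. Differences reached from -0.47 to 0.64 among the targets. The targets were also the dimmer list, and the part of brightness in their spread was not tested. No test was made of these list values, since the members were chosen as a list.

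By array, the mean deviation of the enzymes from their gene means was -0.07, 0.01 and -0.07 in control and reached -0.02 and 0.15 in TNF-LTBR. That of the targets was -0.32, 0.09 and 0.05 in control, against -0.01 and 0.19 in TNF-LTBR. Control 1 was the array on which the lists parted most, with the targets 0.26 further below their mean than the enzymes, and TNF-LTBR 2 was the highest array for both. Group means were -0.04 ± 0.05 (SD, n = 3) and 0.07 ± 0.12 (SD, n = 2) for the enzymes, and -0.06 ± 0.23 and 0.09 ± 0.15 for the targets. The difference between groups was 0.11 for the enzymes, above the control SD and below that of TNF-LTBR, and 0.15 for the targets, below the control SD and about equal to that of TNF-LTBR.

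**Figure D4:**
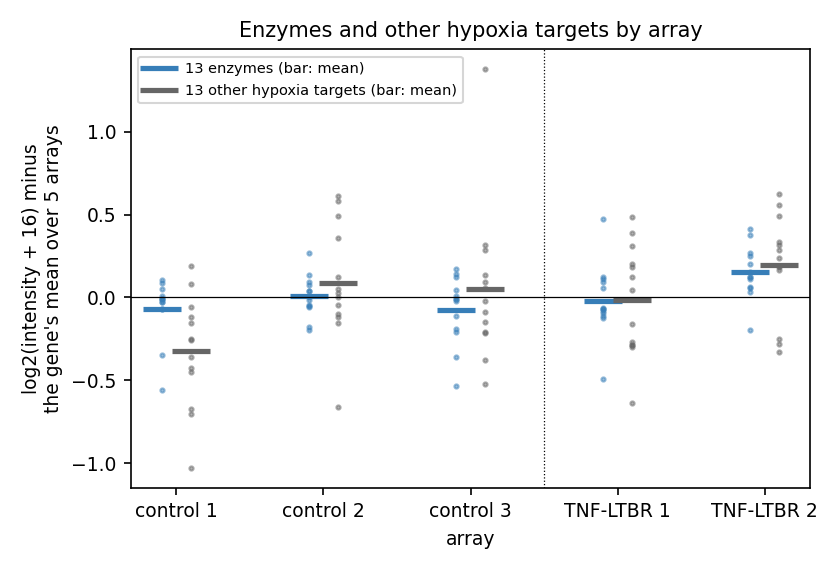
Deviation of each enzyme (blue dots, 13 genes) and each other hypoxia target (grey dots, 13 genes) from its own mean over the 5 arrays, in log2(intensity + 16), with the list mean as a bar. The targets scatter more widely on every array, lie lowest on control 1 (-0.32), and both lists are highest on TNF-LTBR 2 (0.15 and 0.19).

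Hypoxia-inducible genes outside the list were read from a second list of 29, of which 24 were tested. No gene of it passed in limma (smallest adjusted p 0.999), the median difference was 0.08, and 4 genes were higher on both TNF-LTBR arrays than on any control, against 6.93% of all tested genes, with none lower, against 6.32%. At an unadjusted p under 0.05 limma called 1 gene of it, Angptl4, against 1.74%. Angptl4, a secreted inhibitor of lipoprotein lipase, lay at 10.40, 11.30 and 11.15 in control, against 12.39 and 11.77 in TNF-LTBR, a difference of 1.13. Its groups did not overlap, and TNF-LTBR 1 was the higher of the pair, unlike for Egln3. Bhlhe40, a repressor induced by hypoxia, differed by 0.47, Jmjd6, an oxygen-dependent hydroxylase, by 0.29 and the mitochondrial protein gene Fam162a by 0.27, all 3 without overlap. Vegfa, the angiogenic factor and HIF target, differed by 0.37, with 10.16, 10.84 and 10.59 in control, against 10.77 and 11.01 in TNF-LTBR, which overlap. Of 14 tested components of the HIF pathway beyond the list, the differences lay between -0.16 and 0.17. For 1, Hif3a, both TNF-LTBR arrays were below all controls, against 6.32% of all tested genes, with a difference of -0.08.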

How the data were processed

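Each deposited value is an array intensity on a linear scale, 1 per probe set and array. Per the submitters' processing notes GCOS version 1.4 was used; no source used here states the summary algorithm or the target of the scaling. The mean trimmed by 2% at either end was 500 on every array and array medians lay between 109.9 and 120.7, so values were used as deposited. The number of arrays limits the precision.

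Of 45101 probe sets, 34958 carried 1 symbol in the platform annotation, 932 several and 9211 none. All 30 measured members matched RefSeq (GRCm38.p6) by Entrez ID, with 0 symbols changed. Intensities became log2(intensity + 16), which understates differences of dim genes. The brightest 60% of genes, 10916, were tested in R 4.3.3 with limma 3.58.1 (lmFit, eBayes with trend, 3 residual degrees of freedom), with two-sided p-values adjusted after Benjamini-Hochberg across every tested gene and a threshold of 0.05. The procedure was tested on simulated data. All 30 members passed the brightness limit.

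Members and lists were chosen with earlier results of these data known. Values on every array are printed for members without overlap between groups, with an absolute difference of at least 0.5 or a control range of at least 1.5, and for Hif1a, Slc2a1, Gapdh and Ldha. From each further list up to 4 genes without overlap are named, and Epas1 and Vegfa in any case. A further gene of that rule is not reported here. Array values of other genes, and the markers named, were chosen after their values were seen.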

Additional observations from a re-analysis of the deposited data

How the results depend on the processing

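Other settings were pseudocounts of 1 and 64, no filter, the brightest 40% of genes, quantile normalization, median centring and the mean of all probe sets of a gene. Another left out control probe sets and those with a letter suffix (a, s, x or f). Further settings were eBayes without the trend, a replicate block and the omission of each array. Together these gave 435 values for the 30 genes. None passed the threshold, and 0 genes of all tested passed in any of these settings in limma. In settings with both TNF-LTBR arrays, an unadjusted limma p under 0.05 was reached by Slc2a1, Egln3 and, in 2 settings, Adm. Each of these settings had 1 such member, beside 174 to 250 genes over all tested genes. In the main setting these were 190 of 10916 (1.74%). Direction turned in no setting for 12 genes: Adm, Bnip3, Egln3, Hif1a, Hk2, Ldha, P4ha2, Pdk1, Pfkfb4, Pgam1, Pkm and Slc16a3. The like share over all tested genes is not given here. No label says that the replicate numbers pair the arrays. The correlation of deviations from group means was 0.121 for number 1 and -0.803 for number 2. With 2 TNF-LTBR arrays their deviations are mirror images, so these values are not independent and cannot decide on pairing. With the replicate block, whose fit takes control 3 out of the comparison, values turned for Pfkl (0.0061), Pfkfb3 (-0.10), Ndrg1 (0.67), P4ha1 (0.052) and Ddit4 (-0.053), and with the mean of all probe sets for Egln1 (-0.10).

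Leaving out each array, the median difference of the enzymes ranged from -0.02 (without TNF-LTBR 2) to 0.18 (without TNF-LTBR 1), that of the other hypoxia targets from 0.08 to 0.30, and the gap from -0.23 to 0.02. Direction turned without 1 array for 18 genes. The values ran for Slc2a1 from -0.061 to 0.32, Slc2a3 from -0.71 to 0.65, Hk1 from -0.038 to 0.33, Pfkl from -0.52 to 0.39, Pfkp from -0.022 to 0.46, Aldoa from -0.15 to 0.044, Aldoc from -0.10 to 0.57, Tpi1 from -0.038 to 0.18, Gapdh from -0.063 to 0.14, Pgk1 from -0.054 to 0.14, Eno2 from -0.016 to 0.25, Pfkfb3 from -0.27 to 0.54, Egln1 from -0.13 to 0.26, Ankrd37 from -0.29 to 0.35, Ndrg1 from -0.64 to 0.67, P4ha1 from -0.32 to 0.16, Car9 from -0.19 to 0.57 and Ddit4 from -0.21 to 0.43. With 1 TNF-LTBR array left, that array is assumed to vary like the controls. The cause was not tested.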

Other observations

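The pentose phosphate pathway draws sugar phosphates off for NADPH and ribose. Of its 8 tested genes, 7 were higher in TNF-LTBR, against 49.3% of all tested genes. Their median difference was 0.12, near that of the glycolytic enzymes, but the arrays behind it differed. Of the 13 enzymes, 10 were highest on TNF-LTBR 2. Among the pentose phosphate genes Taldo1, Prps1, Pgd and Pgls were highest on TNF-LTBR 1 and Rpia and Tkt on TNF-LTBR 2. H6pd and Rpe were highest on a control. For 2 genes of the pathway both TNF-LTBR arrays were higher than any control, against 6.93% of all tested genes. These were Taldo1, which encodes transaldolase and differed by 0.36, and Prps1, which makes the ribose donor of nucleotides and differed by 0.17. In the tricarboxylic acid cycle 15 genes had a median of -0.0014, and Sdhd, a subunit of succinate dehydrogenase, was the 1 gene without overlap, at 0.14. Over all tested genes, 13.2% had groups without overlap. The 11 genes of pyruvate dehydrogenase and its kinases had a median of -0.02, and their groups overlapped in each case.

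Isozymes and neighbouring enzymes of glycolysis outside the list had a median of -0.03 over 13 tested genes. For 2 of them both TNF-LTBR arrays were lower than any control, against 6.32% of all tested genes. Ldhb, the lactate dehydrogenase subunit that favours the use of lactate, lay at 11.23, 11.10 and 11.03 in control, against 11.02 and 10.71 in TNF-LTBR, a difference of -0.25. Ldha, its counterpart, differed by 0.15. Adpgk, an ADP-dependent glucokinase, differed by -0.24. None of the genes of these 4 lists passed in limma, with 0 at an unadjusted p under 0.05 and a smallest adjusted p of 0.999.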
